A study of Mus musculus with 10 samples.

Results

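The amyloid, apolipoprotein and tau genes described here are 8 genes of Alzheimer's disease biology: App, Aplp1, Aplp2, Psen2, Bace1, Apoe, Clu and Mapt. They were chosen by name, as the genes whose symbol or RefSeq accession a non-control probe carries. No measured value entered this rule, but earlier results of these data were known when the genes were chosen. The 8 genes were found on 11 of 41174 probes, among 18535 genes that could be named. Mapt had 3 probes, Aplp2 had 2 and the other genes had 1 each. Of the named amyloid, tau and synuclein disease genes, those outside these 8 were not analysed here.

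The data hold 10 dual dye arrays of hemibrain RNA from male C57BL/6J mice. The mice were housed singly from the age of 3 weeks, ate either a standard lab diet (SD) or a fish oil diet enriched in n-3 polyunsaturated fatty acids (FD) for about 20 weeks, and were studied at 5 months, with no transgene or deletion named for any animal. Cy-5 marked the RNA of the hemibrain and Cy-3 a comparison RNA on the same spots, so every probe gave the log2 of the Cy-5 signal over the Cy-3 signal. The diet of each array was not settled, because the labels enter FD for the Cy-5 sample of all 10 arrays, describe the same samples as controls and call the Cy-3 RNA an SD hemibrain pool, whereas the methods name FD and SD animals in Cy-5 and a commercial reference RNA in Cy-3. No comparison of FD with SD was therefore made, the arrays were not treated as replicates of a diet, and the diet, the animal and the array cannot be told apart in the spread between arrays.

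Marker genes did not match the label of the Cy-3 RNA. All 8 neuronal markers lay above the Cy-3 RNA by at least 1 on the log2 scale on every array (median 5.53), as did 6 of 7 astrocyte, 5 of 5 oligodendrocyte, 3 of 6 microglia, 3 of 4 choroid plexus and 2 of 3 endothelial markers. The 5 proliferation markers all lay below it on every array (median -6.40). The Cy-3 RNA is called the reference below, and a ratio above 0 means more signal in hemibrain than in that RNA. C10-434 stood apart by its dim Cy-5 signal, where 49.8% of its probes cleared the background in that dye, while the remaining 9 arrays had 68.2% to 76.9%. Values are therefore given with and without C10-434 where it sets them. The arrays came from 4 slides: slide A held C10-415, C10-416, C10-417 and C10-423, slide B held C10-424, C10-425, C10-434 and C10-435, and C10-413 and C10-437 were each alone on a slide.

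App encodes the amyloid precursor protein, a membrane protein that is cut by a series of proteases. Bace1 encodes beta-secretase, which makes the first cut on the path to the amyloid-beta peptide, and Psen2 encodes a presenilin, the catalytic subunit of gamma-secretase, which makes the last. Aplp1 and Aplp2 are the paralogs of App and their products are cut by the same enzymes without giving amyloid-beta. Apoe and Clu encode secreted lipid carriers, apolipoprotein E and clusterin, which bind amyloid-beta and come largely from astrocytes in brain. Mapt encodes tau, the microtubule protein of axons that forms neurofibrillary tangles.

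The 8 genes fell into a high, a middle and a low class by their ratio to the reference. Apoe, Aplp1, Mapt and Clu were highest, at medians of 5.76, 4.69, 4.66 and 3.72 on the log2 scale, or 54.1-fold, 25.9-fold, 25.3-fold and 13.2-fold. Aplp2 (1.77, 3.41-fold) and App (1.71, 3.28-fold) followed, and Bace1 (0.76, 1.69-fold) and Psen2 (0.39, 1.31-fold) were close to the reference. Every member probe was well above background in both dyes on all 10 arrays and none was saturated, so no value is a bound. The order is of ratios and says nothing of which transcript was more abundant, since each ratio also depends on the level in the reference. In whole tissue, a change in the number of cells of a type and a change in RNA per cell cannot be told apart.

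On every array 5 of the 8 genes (Aplp1, Aplp2, Apoe, Clu and Mapt, the last on the 9 arrays with a value) had a log2 ratio of at least 1, against 16.3% of 18353 genes measured. None of the 8 lay below the reference by as much, where 15.8% of genes did. By probe, 7 of the 11 had a log2 ratio of at least 1 on every array with a value, against 12.8% of 40963 probes. No test was run on these counts, as the reference is a single RNA. App reached 1 on 9 of 10 arrays, with C10-415 the exception, Bace1 on 1 array and Psen2 on none, although all 3 were above 0 on all 10 arrays. The plot of log2 ratios by array shows which genes in this order overlapped. The lowest Apoe value, 5.12, lay below the highest of Aplp1 (5.37) and of Mapt (5.56). Aplp1 and Mapt ran over nearly the same span. Clu did not overlap Mapt or Aplp2, its neighbours, nor Aplp1 or App. App overlapped Aplp2 and, through C10-415, Bace1, and Bace1 (lowest 0.62) overlapped Psen2 (highest 0.78).

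**Figure D1:**
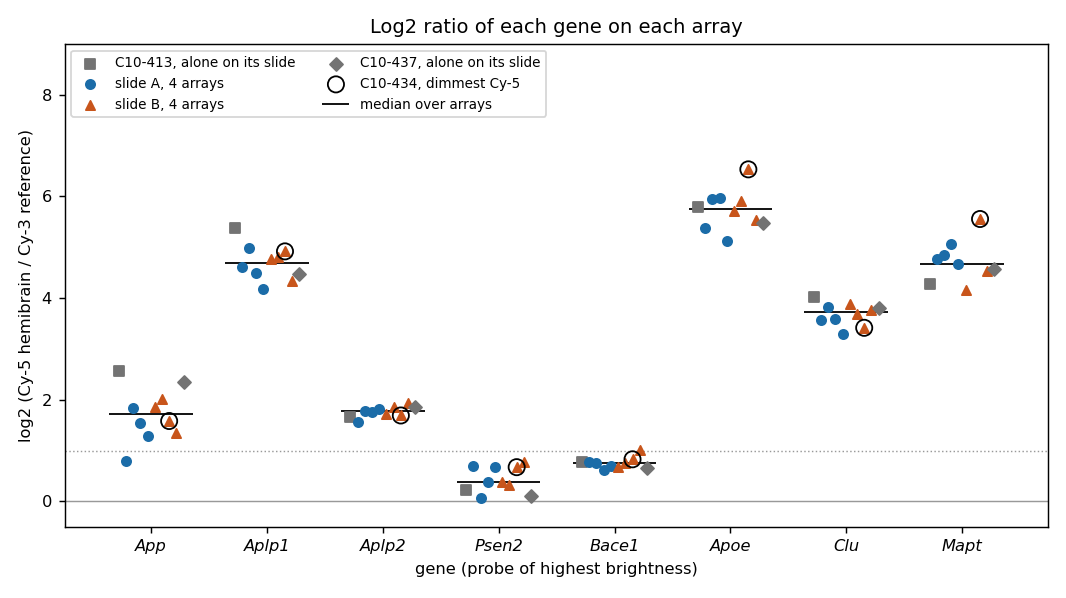
Log2 of Cy-5 over Cy-3 (vertical axis) of the brightest probe of each of the 8 genes (horizontal axis) on each array, with squares, circles, triangles and diamonds for the 4 slides, a ring around C10-434, a bar at the median, a solid line at 0 and a dotted line at 1. Apoe (median 5.76), Aplp1 (4.69), Mapt (4.66) and Clu (3.72) lie far above the dotted line, and Bace1 (0.76) and Psen2 (0.39) lie mostly between the lines.

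In the values reported, App had the widest range over the arrays of the 11 member probes. The other settings were compared with 1 value per gene. There Aplp1 and Apoe were wider than App under normexp background correction (1.81 and 1.65 against 1.62). With no dye normalization Mapt was wider (1.67 against 1.54). The log2 ratio of App was 2.56 on C10-413, 2.34 on C10-437, 2.02 on C10-425, 1.86 on C10-424, 1.84 on C10-416, 1.58 on C10-434, 1.54 on C10-417, 1.35 on C10-435, 1.29 on C10-423 and 0.79 on C10-415. The highest and the lowest array thus lay 1.77 apart, or 3.40-fold. C10-415 stood lowest and the pair of arrays alone on their slides stood highest, but the other 7 spread evenly between them. Among 11368 genes well above background in both dyes on all arrays, where the median range was 0.79, 96.8% had a smaller range than App. Leaving out C10-434 changed neither end of the App values.

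The App probe was printed on 10 spots of each array, so the error of a single measurement is known. The SD between these spots within an array was 0.0429 to 0.121, with a pooled value of 0.0798. The SD between the array means was 0.52, which is 6.54 times the pooled spot SD. Of 133 probes with 10 spots that were well above background on all arrays, App had the largest such ratio and ranked 5 by the SD between arrays itself, where the medians were 2.40 and 0.24. Spots of 1 array share the same labeled RNA, so this spread covers the printing and scanning of spots and not labeling or dissection.

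Apoe, the other member with 10 spots, was noisier within an array and moved less beyond that noise. Its pooled spot SD was 0.15, the SD between arrays was 0.39 and the quotient was 2.70, at rank 54 of the 133 probes. It ran from 5.12 on C10-423 through a median of 5.76 to 6.53 on C10-434. C10-434 alone stood above 6, and without it the highest array was C10-417 at 5.97 and the range fell from 1.41 to 0.84. The plot of spot means for App and Apoe shows the spot SD against the differences between arrays.

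**Figure D2:**
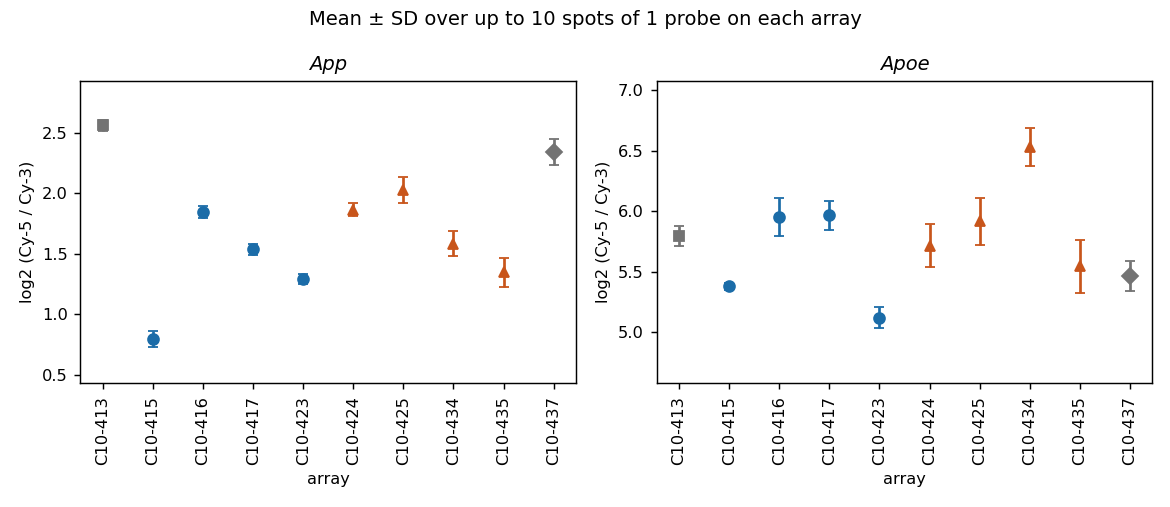
Mean log2 of Cy-5 over Cy-3 (vertical axis) on each array (horizontal axis) for the 10-spot probes of App and Apoe, with error bars of 1 SD over the spots used and markers and colours by slide as in the plot of ratios by array. Both panels span the same height, and the bars of App (pooled SD 0.0798) are short beside its range of 1.77, whereas Apoe (pooled SD 0.15) has C10-434 at 6.53 above the rest.

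The 2 dyes were also followed apart, after the mean brightness of both dyes was brought to the same distribution on all arrays. The App range lay in the hemibrain channel, where the Cy-5 level spanned 1.87 on the log2 scale, from 13.93 on C10-415 to 15.79 on C10-413. The Cy-3 level, which carried the same reference on every array, spanned 0.16. Aplp1 (1.49 in Cy-5 and 0.47 in Cy-3), Psen2 (0.80 and 0.11), Clu (0.90 and 0.34) and Bace1 (0.46 and 0.12) also varied more in Cy-5. Apoe and the brightest Mapt probe did not: the Cy-3 level of Apoe spanned 0.93 against 0.76 in Cy-5, and that of this Mapt probe 1.05 against 0.51. Without C10-434 the Cy-3 range of Apoe was 0.57 against 0.69 in Cy-5. That of this Mapt probe was 0.49 against 0.51, or nearly equal. Mapt probe A_51_P140576 varied more in Cy-3 over all arrays (1.39 against 0.71 in Cy-5) and without C10-434 (0.80 against 0.71). The remaining Mapt probe, A_51_P476689, varied more in Cy-5, at 0.84 against 0.51 in Cy-3.

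**Figure D3:**
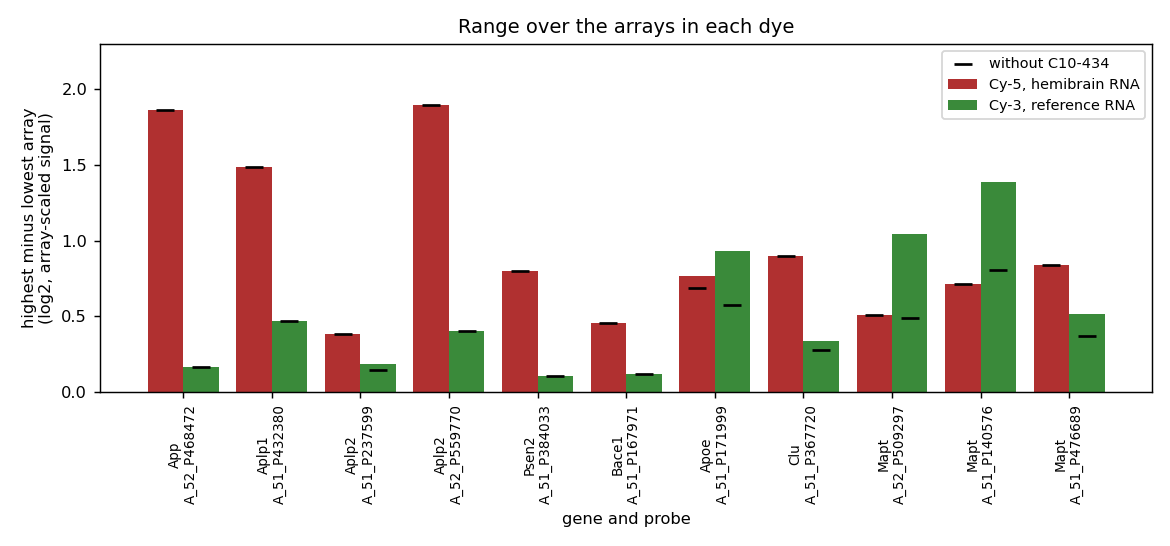
Highest minus lowest array (vertical axis, log2 units of the scaled signal) in the hemibrain dye Cy-5 and the reference dye Cy-3 for the 11 member probes (horizontal axis), with black dashes for the value without C10-434. App has 1.87 in Cy-5 and 0.16 in Cy-3, whereas Apoe (0.76 and 0.93) and 2 of the 3 Mapt probes have the taller bar in Cy-3.

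The enzymes had smaller ranges than their substrate App. Bace1 stayed between 0.62 on C10-417 and 1.00 on C10-435 around a median of 0.76, a range of 0.38, with 3.74% of genes having a smaller one. Under normexp background correction the Bace1 range was 0.87. Psen2 ran from 0.07 on C10-416 to 0.78 on C10-435 around a median of 0.39, a range of 0.70 that lay near the middle of all genes (39.8% had a smaller one). The widest gap between neighbouring Psen2 values, 0.28, ran from 0.39 on C10-417 to 0.67 on C10-434. Above it lay C10-415 and C10-423 of slide A and C10-434 and C10-435 of slide B, so both slides had arrays on both sides.

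The App paralogs behaved differently from App and from each other. Aplp1, a neuronal paralog, ran from 4.17 on C10-423 through a median of 4.69 to 5.37 on C10-413, and its highest array was that of App. The brighter Aplp2 probe, A_51_P237599, stayed between 1.57 on C10-415 and 1.93 on C10-435 around its median of 1.77. Its range was 0.36, and 2.93% of genes had a smaller one, but under normexp background correction the range was 1.103. The dimmer Aplp2 probe, A_52_P559770, gave another picture, from -0.63 on C10-423 through a median of 0.19 to 0.95 on C10-413, with 6 arrays above 0 and 4 below.

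The brighter Aplp2 probe gave the higher ratio on all 10 arrays, by 0.71 on C10-413 to 2.44 on C10-423 with a median of 1.52. Over the arrays the probes did not move together (r = -0.12, n = 10 arrays, given as a description). The Aplp2 value therefore depends on the probe, and under the median of both probes Aplp2 no longer reached 1 on every array, leaving 4 of the 8 genes above the reference. Which transcripts each probe detects was not examined, as the probe sequences were not used here.

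Tau was high on each of its 3 probes. The brightest, A_52_P509297, ran from 4.16 on C10-424 through 4.66 to 5.56 on C10-434 over 9 arrays. Its spot on C10-425 carried the outlier flag of the software and was set aside; with that spot kept, C10-425 read 4.79. A_51_P140576 ran from 4.97 on C10-413 to 6.39 on C10-434, and A_51_P476689 from 5.13 on C10-423 to 5.94 on C10-434. C10-434 was the highest array on all 3, and without it the ranges fell from 1.40 to 0.92, from 1.42 to 0.75 and from 0.81 to 0.65.

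The first 2 of these Mapt probes moved together over the 9 arrays they shared (r = 0.94, and 0.86 without C10-434). A_51_P476689 followed them less closely, with r = 0.56 and 0.58, which fell to 0.27 and 0.29 without C10-434. These values describe probes on the same labeled RNA and are no test. The plot of both genes by probe sets the agreement in height of the Mapt probes beside the gap between the Aplp2 probes.

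**Figure D4:**
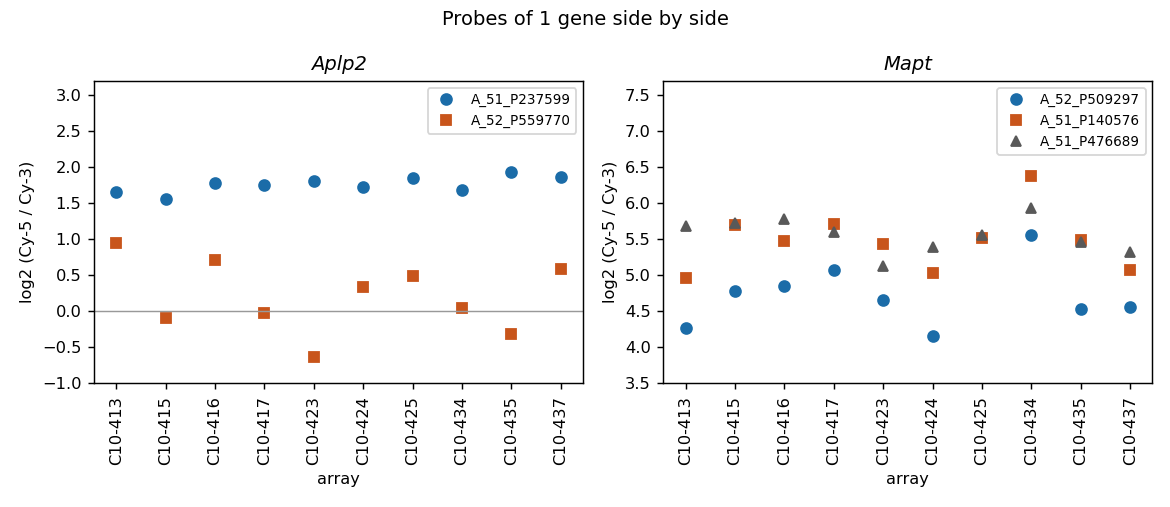
Log2 of Cy-5 over Cy-3 (vertical axis) of the 2 probes of Aplp2 and the 3 probes of Mapt on each array (horizontal axis), 1 point per probe and array. The Aplp2 probes are apart by a median of 1.52 and the dimmer falls below 0 on 4 arrays, whereas all Mapt values exceed 4 and peak on C10-434; the missing point is the spot set aside on C10-425.

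Clu, the other astrocyte-derived carrier, kept a narrow band from 3.30 on C10-423 through a median of 3.72 to 4.02 on C10-413. C10-434 was the lowest array but C10-423, at 3.42, although it was the highest for Apoe. A range of 0.72 placed Clu below the middle of all genes, with 42.1% having a smaller one, but it was 1.20 under normexp background correction and 0.43 with no dye normalization. Apoe and Clu, which share a cell type of origin, showed no common course over the arrays (r = 0.05, permutation p = 0.885, n = 10). Without C10-434 this r was 0.57.

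Markers of several cell types also differed on C10-434, the highest array for Apoe and Mapt, and not all in the same direction. Relative to the median of each gene over the arrays, the 8 neuronal markers were higher by a median of 0.97 there (6 of 8 higher) and the 7 astrocyte markers by 0.44 (5 of 7 higher). On the other arrays these medians ran from -0.29 to 0.18 and from -0.22 to 0.18. The 5 proliferation markers, which were low in hemibrain, were also higher on C10-434, by 0.42 (5 of 5). Oligodendrocyte and endothelial markers stood at 0.44 (3 of 5 higher) and 0.37 (2 of 3 higher) on that array. Microglia and choroid plexus markers stood at -0.08 (3 of 6 higher) and -0.23 (2 of 4 higher), so these lists were split in direction. Among the markers that went the other way, Stmn2 and Eno2 of neurons and Gfap of astrocytes were lowest on C10-434. Gfap read 6.40 there, with a median of 8.30 over the arrays. The reference signal of this Gfap probe cleared the background on only 2 arrays, so the size of this difference is uncertain. The other Gfap probe had a median of 3.23. By dye, scaled as above, the Cy-3 level on C10-434 was the lowest of all arrays with a value for Apoe (12.78) and the brightest Mapt probe (11.76). The Cy-5 level there was the highest for Apoe (19.31) but not for this Mapt probe, at 17.32 against 17.39 on C10-415. The part of the dim Cy-5 signal, of the Cy-3 level and of these cell types in the Apoe and Mapt values was not tested. On C10-413 and C10-415, the highest and the lowest array for App, neuronal markers stood at -0.04 and -0.01 and astrocyte markers at -0.09 and 0.02. Oligodendrocyte markers stood at 0.07 and 0.29 and choroid plexus markers at 0.04 and 0.41 on these arrays, and the choroid plexus markers were lowest on C10-437 (-0.53, 0 of 4 higher), the array next to the highest for App. After background subtraction, the median signal in Cy-5 was 171 on C10-413, 61.7 on C10-437 and 60.0 on C10-415. The part of Cy-5 brightness and of these cell types in the App values was not tested.

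No member was called different between the slides. Of the 10 member probes with a value on all 8 arrays of slides A and B, 0 passed an adjusted p of 0.05 in limma's test, where 0.0744% of 40299 probes did (14 higher on slide B and 16 lower). These 30 calls over all probes fell to 18 without C10-423, 2 without C10-415 and 0 without any of the other 6 arrays, and no member was called in any of these. At an unadjusted p of 0.05, 0 of the 10 passed against 10% of all probes. The App mean was 1.37 on slide A and 1.70 on slide B, a difference of 0.34 with a standard error of 0.25 (limma adjusted p = 0.803). Apoe had 5.61 and 5.93, a difference of 0.32 with a standard error of 0.28 (limma adjusted p = 0.850). App varied within both slides, from 0.79 to 1.84 on slide A and from 1.35 to 2.02 on slide B.

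Correlations were computed for the 28 pairs of the 8 genes over the arrays, with the brightest probe of each. None passed Benjamini-Hochberg adjustment over the 28 pairs (lowest adjusted p = 0.167), and 3 had an unadjusted permutation p below 0.05. App and Psen2 ran opposite to each other, with r = -0.79 (permutation p = 0.00598, adjusted p = 0.167, n = 10) and rho = -0.82 (permutation p = 0.00548). C10-413 and C10-437, highest in App, had Psen2 at 0.23 and 0.11, and C10-415, lowest in App, had Psen2 at 0.69. Without the 2 arrays farthest from the median of App r was -0.83, without C10-434 it was -0.81, and with each slide's mean taken off the 8 arrays of slides A and B gave -0.92. Among the 6 arrays below the gap in Psen2, r was -0.45 (exact permutation p = 0.336). Psen2 ran only from 0.07 to 0.39 on those arrays, and the part of this narrower span in the lower r was not tested. The 4 arrays above the gap were too few for a value.

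App and Clu had r = 0.67 (permutation p = 0.0346, adjusted p = 0.301, n = 10) and rho = 0.73 (permutation p = 0.0205), with r = 0.59 without the 2 farthest arrays and 0.38 within slides. Psen2 and Clu had r = -0.64 (permutation p = 0.0479, adjusted p = 0.301, n = 10) and rho = -0.64 (permutation p = 0.0537), with r = -0.81 without the arrays farthest from the median of Psen2. Both are weaker than the relation of App with Psen2, and none of the 3 holds after adjustment. App and its paralog Aplp1 had r = 0.58 (permutation p = 0.0765, adjusted p = 0.301, n = 10). If the arrays held mice of both diets, a diet could move 2 genes at once, and this cannot be told apart from other differences between animals.

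**Figure D5:**
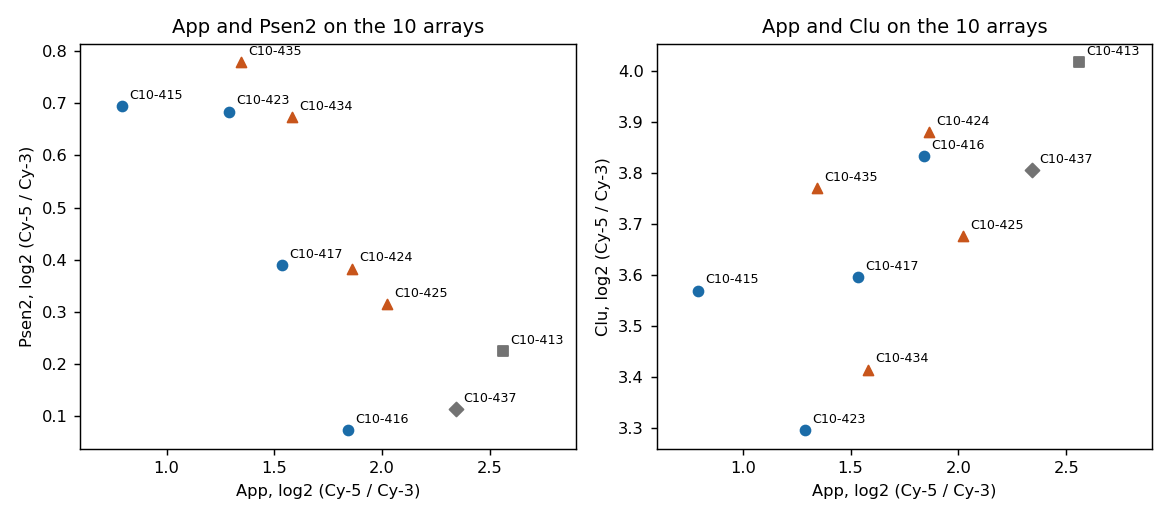
Log2 ratio of Psen2 (left, vertical axis) and Clu (right, vertical axis) against that of App (horizontal axes), 1 labelled point per array, with markers and colours by slide as in the plot of ratios by array. Psen2 is low where App is high (r = -0.79) and Clu is higher where App is high (r = 0.67), and neither passes adjustment over 28 pairs.

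The genes most like each member over the arrays were looked up among 10523 genes well above background in both dyes and with a value on all 10 arrays. Psen2 was most like Smim3 (r = 0.97), App most like Epb41l3 (0.97), Clu most like Gspt1 (0.96), Apoe most like Plekhb1 (0.98) and Mapt, over 9 arrays, most like Wipf3 (0.98). Aplp1 with Senp3 (0.93), Aplp2 with Tmem89 (0.90) and Bace1 with Tbc1d9 (0.88) had lower values. In a search over this many genes some high r arises from the number searched, so these are descriptions with no p. Epb41l3, which encodes a protein of the membrane skeleton, was lowest on C10-415 (0.77) and highest on C10-413 (2.06), as App was.

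Other genes of these pathways were counted in 4 lists, with 48 of 52 genes found, and their counts stand beside 16.3% of all genes above the reference on every array and 15.8% below it; no list was tested against these shares. Of the secretase partners and other proteases of App, 2 of 11 were above the reference on every array, 2 were below, 6 were neither and 1 had a value on too few arrays. Aph1b, a gamma-secretase subunit, was at a median of 1.51, but its 3 probes ran from -0.25 to 1.51. Psenen, another subunit, was at -0.60, and the alpha-secretase Adam17 and the insulin-degrading enzyme Ide were low at -2.70 and -1.78. Adam9 (-0.90) and the endothelin-converting enzyme Ece1 (0.92) lay nearer the reference, but Ece1 is the gene with a value on too few arrays. The median of this list was -0.03, below both Bace1 and Psen2.

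The adaptors and sorting receptors of App were above on every array for 6 of 14 genes, below for 0 and neither for 8. Sort1, which encodes the receptor sortilin, reached 6.40, and the adaptor genes Apba2 and Apbb1, whose products bind the cytoplasmic tail of App, reached 5.09 and 4.82. Apba3 and Vldlr were among the lowest, at -0.49 and -0.48. The probes of Sort1 (1.72 to 6.40) and Vldlr (-0.48 to 1.44) disagreed with each other. The list median was 1.30.

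Of the lipid carriers and transporters, 3 of 8 were above, 2 below and 3 neither. Apod, an apolipoprotein of glia, was higher than Apoe in its ratio, at 6.16. Lcat, which esterifies cholesterol on lipoproteins, was at 2.50, and the cholesterol exporter Abcg1 at 1.47. Lipoprotein lipase (Lpl, -2.34) and the lipoprotein receptor Scarb1 (-1.67) were below on every array, and the cholesterol exporter Abca1, which lipidates Apoe, was at -0.29. The list median was 0.37 against 5.76 and 3.72 for Apoe and Clu.

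Of the microtubule proteins and tau kinases, 6 of 15 were above, 0 below and 9 neither. Map2, the dendritic relative of tau, was at 8.32, and Cdk5r1, which encodes the activator of the tau kinase Cdk5, at 6.23. Ttbk2 was at 2.31 and its relative Ttbk1 at 0.08, but their probes ran from -1.60 to 2.31 and from 0.08 to 4.39. Gsk3b, another tau kinase, was at -0.65 and Map1b at -0.17, with 1 Map1b probe at 2.59. Of the 74 probes of all 48 genes tested between slides, 0 passed the adjusted threshold in limma (lowest adjusted p = 0.0553), and 5 had an unadjusted p below 0.05, 1 higher and 4 lower on slide B, where 10% of all probes did.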

How the data were processed

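Per the methods, Cy-5 was used for hemibrain RNA and Cy-3 for reference RNA, and both were hybridized to Agilent slides. The authors deposited, for each array, the Feature Extraction output (version 10.10.1.1, as in the file header), whose signals are intensities on a linear scale, background-subtracted and dye-normalized by the software as processed signals. The deposited log ratio is a log10 value, Cy-5 divided by Cy-3, and a deposited table holds log2 ratios of the same arrays (r = 1 across probes with the ratios used here, on every array).

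From these, log2 of processed Cy-5 over Cy-3 was taken, without control spots or spots flagged as outliers, and averaged over the spots of each probe. Of 41174 probes, 27190 (66.0%) were named through RefSeq accessions (assembly GRCm38.p6, names only; no coordinates are given because the files use another build). A gene was represented by its brightest probe. A gene counted as above (below) the reference at a log2 ratio of at least 1 (at most -1) on every array, with a value on at least 8. The level of a single dye was taken after quantile normalization of the mean brightness across arrays in limma. Slide B (4 arrays) was compared with slide A (4 arrays) in limma 3.58.1 (R 4.3.3) with Benjamini-Hochberg adjustment over all probes at 0.05, and pairs of members with two-sided permutation tests of 100000 resamples. Both were tested on simulated data. The number of arrays limits the precision, and p-values between slides measure the spread between these arrays.

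The alternatives were loess within each array (span 0.3), median centring, normexp (offset 50), the deposited table, all probes of a gene, filters on dim probes, a log2 ratio of 2 and leaving out each array. A background subtraction with a floor of 0.5 and signals with no dye normalization were added after the data were examined. Named are all members, for each the gene with the highest r, with a value on all arrays, and, of each list, up to 3 genes at each end of the medians among genes that carried the well-above-background flag in Cy-5 on each array. The members and lists were chosen with earlier results of these data known.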

Additional observations from a re-analysis of the deposited data

Results flagged for a closer look

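In a test for a sample far from the others, run on the 11 member probes, 1 array stood out: Mapt probe A_51_P140576 read 6.39 on C10-434, with 5.72 on the next array and a median of 5.48 over the 10 arrays. Chance marks about 1 in 20 such groups, so 1 of 11 probes is no unusual number. C10-434 had the dimmest Cy-5 signal. The other Mapt probes were also highest there, at 5.56 and 5.94, without passing the same limit.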

How the results depend on the processing

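The number of members above the reference was 5 in the values reported and 5 under loess, median centring, normexp, the deposited table, both added settings and both filters on dim probes. It was 4 with all probes of a gene (Aplp2 left), 4 at a log2 ratio of 2 and 5 to 6 with each array left out (6 without C10-415, when App joined). The range of App was 1.54 to 1.77 over all settings, that of Aplp2 0.22 to 1.103, of Bace1 0.30 to 0.87 and of Clu 0.43 to 1.20, each highest under normexp except that of App. The probes called between slides were 30 in the values reported, 0 under normexp and 1 after background subtraction with a floor. They were 68 with only probes well above background in Cy-5, and 0 to 18 with each array of slides A and B left out. The count over all probes thus changed with the setting and with the arrays used, and the cause was not tested. No member probe was called under any of these settings. The 28 pairs gave 0 passing pairs except under normexp, which gave 2 (Aplp2 with Clu, r = 0.92, and Aplp1 with Apoe, r = 0.81); the cause was not tested. For App and Psen2, r was -0.85 to -0.74 and the adjusted p 0.0546 to 0.241 over these settings and without C10-434, which gave the highest. No paired analysis was possible because the arrays form a single group of the labels. The members other than App and Apoe have 1 spot per probe and no spot error. C10-434, with 49.8% of probes well above background in Cy-5, is the least certain array.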
